A study of Mus musculus with 9 samples.

Results

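Ifetroban was compared with vehicle in the left ventricle of wild-type (WT) mice, with 2 WT ifetroban libraries set against 2 WT vehicle libraries. The 4 libraries were chosen by their titles and are 4 of the 9 in the series. The other 5 came from mice lacking delta-sarcoglycan, called dSG KO in the labels, 2 given vehicle and 3 given ifetroban. Reads of polyadenylated RNA were counted per gene. Nothing was named as shared by all groups beyond the tissue, and the WT mice carried no named allele. Strain, age, sex, dose, route and duration of treatment are not given in the sources used here. The labels also do not say that each library came from a separate mouse, so p-values measure the spread between libraries, part of which may be technical.

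Ifetroban blocks the receptor for thromboxane, which Tbxa2r encodes. Cyclooxygenases turn arachidonic acid into prostaglandin H, from which thromboxane synthase makes thromboxane A and other synthases make prostacyclin and the prostaglandins. The receptor couples to Gq and related G proteins, raising calcium and activating RhoA, and is best known for platelet aggregation and for contraction of vascular smooth muscle. Its ligands also include isoprostanes, which form when lipids are oxidised.

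Counts in genes were 21623386 and 25452280 in WT vehicle replicates 1 and 2, and 26319517 and 24920107 in WT ifetroban replicates 1 and 2. All levels below are CPM, read counts normalised to each library's TMM-scaled total, given in that order. Defining markers of ventricular heart muscle were present in each library. Myh6, the adult myosin heavy chain, stood at 15972, 24022, 24118 and 24445 CPM. Of the atrial markers, Myl7 had 1, 6, 2 and 2 reads and Sln had 2, 0, 0 and 1.

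The library labelled WT vehicle replicate 1 stood apart from the other 3. Sgcd, the gene disrupted in the knockout, was at 11.1 CPM there, against 28.9, 33.1 and 31.2 CPM in the other WT libraries and 7.49 to 18.5 CPM in the knockout libraries. For this gene the library labelled WT vehicle replicate 1 therefore lay inside the knockout range. Which part of Sgcd the knockout lacks is not given in the sources used here. A pair of genes chosen after their values were seen placed it with the WT. Pttg1 was at 76.7, 46.5, 46.6 and 46.2 CPM in the WT libraries and at 1.66 to 2.46 CPM in the knockout. Cyfip2 was at 194, 266, 255 and 265 CPM in the WT libraries and at 17.5 to 44.9 CPM in the knockout.

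Short transcripts were high and long ones low in the library labelled WT vehicle replicate 1. Its median deviation from the mean of all 9 libraries was 0.23 (log2 CPM) in the quartile of genes with the shortest exonic length and -0.17 in the longest. In the other 3 WT libraries the same medians were -0.16 to -0.12 and 0.13 to 0.14. KO vehicle replicates 1 and 2 and KO ifetroban replicate 1 shared the trend of the library labelled WT vehicle replicate 1. Their medians were 0.21, 0.13 and 0.18 in the shortest quartile and -0.22, -0.11 and -0.16 in the longest. KO ifetroban replicates 2 and 3 had -0.15 and -0.13 in the shortest quartile and 0.14 and 0.13 in the longest. The standard deviation over genes of the log2 CPM difference was 0.615 between both WT vehicle libraries and 0.448 between both WT ifetroban libraries. It was 0.426 and 0.381 between WT vehicle replicate 2 and the ifetroban libraries, so WT vehicle replicate 2 differed less from each ifetroban library than from the other vehicle library. The lists below whose values turn on the library labelled WT vehicle replicate 1 are therefore given with and without it, as are the others where stated; the part of transcript length and of this library in a value was not tested further.

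**Figure D1:**
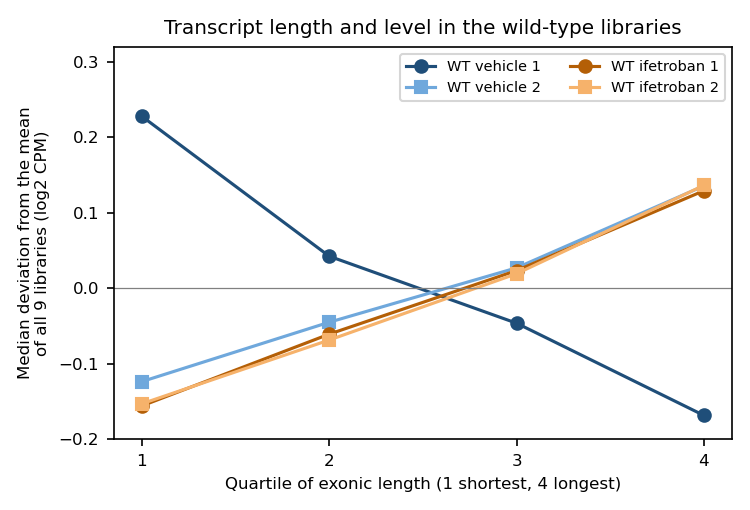
Median deviation of each WT library from the mean of all 9 libraries (log2 CPM) by quartile of exonic length, 1 line per library. WT vehicle 1 falls from 0.23 to -0.17 from the shortest to the longest genes, and the other 3 libraries run the opposite way.

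No gene passed the test between WT ifetroban and WT vehicle. Of 15261 genes tested with edgeR's quasi-likelihood test, 0 had a Benjamini-Hochberg adjusted p under 0.05 (0% of genes), and the smallest adjusted p was 0.999. At an unadjusted p under 0.05, 48 genes were higher (0.315%) and 144 lower (0.944%) with ifetroban, 192 in all, where 763.1 would be expected of uniform p-values. DESeq2 and limma voom with quality weights also called 0 genes after adjustment. At an unadjusted p under 0.05, DESeq2 had 39 higher and 113 lower, and voom 61 higher and 207 lower. Both ifetroban libraries exceeded both vehicle libraries for 2280 genes (14.9%) and lay below both for 2511 (16.5%).

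The intervals show what sizes of change these 4 libraries could and could not bound. The median log2 fold change was -0.02, and the 5th and 95th percentiles over genes were -0.67 and 0.49. The standard error had a median of 0.272 on the log2 scale and the 95% interval a median half-width of 0.609. For 9590 genes (62.8%) the whole interval lay within a 2-fold change either way, and for 13758 (90.2%) within a 4-fold change. Among the 11703 genes whose mean log2 CPM reached 1, the interval was within 2-fold for 9445 (80.7%). In 161 genes the estimate itself was over 2-fold higher and in 369 over 2-fold lower, all short of the adjusted threshold.

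Transcripts of the drug's own receptor were present at low level in all 4 libraries. Tbxa2r (GRCm38 chr10:81328731-81335172, plus strand) had 57, 92, 94 and 49 reads, or 2.93, 3.55, 3.61 and 1.94 CPM. WT ifetroban replicate 2 had the lowest value and the groups overlapped. The log2 fold change was -0.23 ± 0.407 (SE), with a 95% interval from -1.14 to 0.68 (unadjusted p = 0.591 in edgeR).

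Of the other genes on the prostanoid receptor list, 5 could be tested and none passed. Ptgir, the prostacyclin receptor, was at 5.65, 6.88, 6.44 and 6.34 CPM, the ifetroban libraries lying between the vehicle ones. Its log2 fold change was 0.03 ± 0.28, with an interval from -0.60 to 0.65. Ptger4, a receptor of prostaglandin E, was at 12.4 CPM in the library labelled WT vehicle replicate 1 and at 3.90 to 5.83 CPM in the others, so its log2 fold change moved from -0.63 to 0.43 without that library. Ptgfrn, a partner protein of the prostaglandin F receptor and not itself a prostanoid receptor, was at 45.4 and 52.0 CPM with vehicle. With ifetroban it was at 58.1 and 55.4 CPM. Its groups did not overlap, and the log2 fold change of 0.22 ± 0.174 had an unadjusted p of 0.236 in edgeR. Ptger2, Ptger3, Ptgdr and Ptgdr2 had at most 8 reads in any WT library and were not tested.

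The synthesis genes were likewise not separated by the drug, apart from Ptgds. Ptgds (chr2, minus strand), which makes prostaglandin D and also carries lipids, was at 806, 472, 336 and 408 CPM. Both ifetroban libraries lay below both vehicle libraries, but the vehicle libraries differed from each other by more than the nearest libraries of both groups did. Its log2 fold change was -0.78 ± 0.298 (unadjusted p = 0.0266 and adjusted p = 0.999 in edgeR) and -0.34 without the library labelled WT vehicle replicate 1. Tbxas1, thromboxane synthase, was at 1.64, 2.90, 2.11 and 1.86 CPM, with a log2 fold change of -0.20 ± 0.388. Ptgs1, the constitutive cyclooxygenase, was at 6.16, 6.57, 6.52 and 4.99 CPM (-0.15 ± 0.26). Both genes overlapped between groups. Ptgs2, the inducible cyclooxygenase, was at 3.39 CPM in the library labelled WT vehicle replicate 1 and at 0.464, 0.767 and 0.634 CPM in the others. Its log2 fold change was -1.41 ± 1.15 with that library and 0.59 without it. Ptgis, prostacyclin synthase, was at 18.8, 13.4, 17.5 and 10.97 CPM (-0.17 ± 0.364), with high and low libraries in both groups.

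Over the whole group of synthesis genes, 3 of 13 were positive and 10 negative, with a median log2 fold change of -0.15. Without the library labelled WT vehicle replicate 1, 6 were positive and 7 negative, with a median of -0.19. Without WT vehicle replicate 2 the median was -0.04. The 6 tested receptor genes had a median of 0.06 (0.01 without that library and -0.26 without WT ifetroban replicate 1). The 6 genes of transport and breakdown had a median of 0.11 (0.03 without the library labelled WT vehicle replicate 1), beside -0.02 over all genes. Among the latter, Abcc4, which exports prostaglandins, was at 14.5, 20.5, 25.4 and 20.96 CPM. Both ifetroban libraries were above both vehicle libraries, and the log2 fold change was 0.40 ± 0.221, or 0.18 with the library labelled WT vehicle replicate 1 left out. Hpgd, which inactivates prostaglandins, was at 3.23, 5.02, 5.56 and 4.12 CPM and overlapped.

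**Figure D2:**
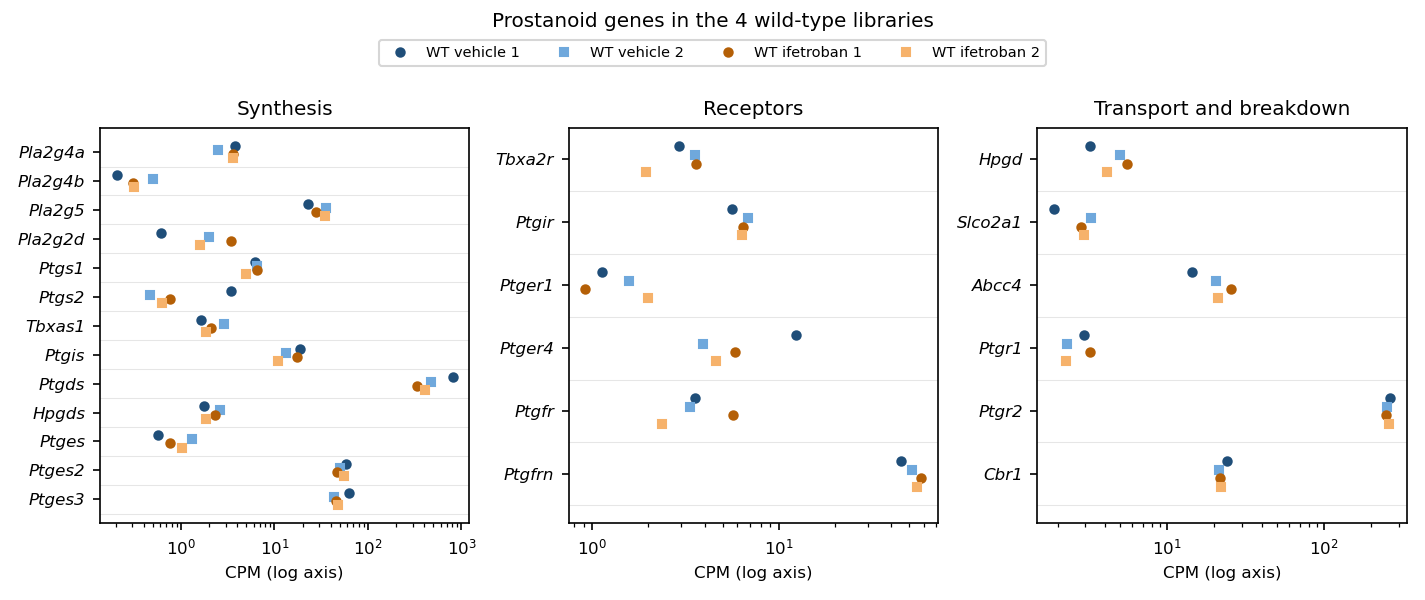
CPM (log axis) of the tested prostanoid genes in each of the 4 WT libraries, by role. In most genes the blue vehicle and orange ifetroban points overlap; Ptgs2 and Ptger4 have 1 high point, WT vehicle 1.

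The genes that carry the receptor's signal inside the cell had a median slightly above that of all genes, and close to it without the library labelled WT vehicle replicate 1. The 27 tested members, from G proteins and phospholipase C to RhoA and its kinases, comprised 17 positive and 10 negative, and none had an unadjusted p under 0.05. Their median was 0.13, and 0.02 without the library labelled WT vehicle replicate 1, where 14 were positive and 13 negative. With all libraries, both ifetroban libraries lay above both vehicle libraries for 8 of them and below for 3. The shares over all genes were 14.9% and 16.5%. Plcb4, a phospholipase C that Gq proteins activate, was at 64.6, 68.1, 94.5 and 78.7 CPM. The ifetroban libraries were both above the vehicle libraries, with a log2 fold change of 0.38 ± 0.232. Arrb1, an arrestin that ends receptor signalling, was at 19.3, 33.0, 34.0 and 34.1 CPM (0.38 ± 0.27). There the library labelled WT vehicle replicate 1 alone was low, and the value was 0.05 without it. The 16 genes driven by calcineurin with NFAT or by RhoA with serum response factor had a median of 0.01, with 9 positive and 7 negative, and -0.01 without that library. Ccn1, a matricellular protein of this group, was at 164, 118, 67.2 and 85.0 CPM, lower in both ifetroban libraries (-0.89 ± 0.644).

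Because no gene was called, the genes closest to the threshold are given as values only. They are the 10 per direction with the smallest unadjusted p, an average log2 CPM no lower than 1 and groups that did not overlap. There were 1804 genes higher and 1645 lower that met the last 2 conditions. The adjusted p of each was 0.999 in edgeR. Their directions are fixed by the choice of genes whose groups do not overlap and are no sign of stability.

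On the higher side, several encode secreted factors or their receptors. Frzb (chr2:80411970-80447625), a secreted antagonist of Wnt ligands, had the smallest p of all genes. Its levels were 3.64 and 3.55 CPM in the vehicle libraries and 7.94 and 6.10 CPM in the ifetroban libraries. The log2 fold change was 0.96 ± 0.239 (unadjusted p = 0.0026) and 0.98 without the library labelled WT vehicle replicate 1. Ltbp2 (chr12:84783212-84876532), a matrix protein of microfibrils, was at 2.87 and 5.56 CPM in the vehicle libraries against 8.71 and 8.20 CPM after ifetroban. Here the lowest of the 4 was again the library labelled WT vehicle replicate 1, and the log2 fold change of 0.99 ± 0.373 became 0.61 without it. Met, the receptor of hepatocyte growth factor, was at 1.08, 1.58, 2.49 and 3.17 CPM (1.07 ± 0.394). Pdgfd, a platelet-derived growth factor, was at 13.6 and 13.9 CPM with vehicle against 20.4 and 17.2 CPM with ifetroban (0.45 ± 0.179). For Pdgfd the vehicle libraries were closer to each other than the ifetroban ones.

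Efnb2, the ephrin ligand that marks arterial endothelium, was at 26.1, 30.0, 39.6 and 36.6 CPM. Its log2 fold change was 0.44 ± 0.168. Fstl4, of the follistatin-like family, was at 3.70, 4.29, 6.87 and 7.53 CPM (0.85 ± 0.31). The remaining 4 act inside the cell. Carmil1, which regulates actin capping, was at 2.98 and 2.98 CPM with vehicle against 5.33 and 4.60 CPM with ifetroban (0.74 ± 0.245). Epb41l5, a protein of cell polarity, was at 6.37, 8.42, 11.8 and 10.97 CPM (0.62 ± 0.236), and Atp8a2, a phospholipid flippase, at 5.49, 5.56, 8.32 and 8.99 CPM (0.65 ± 0.255). Mcm5, a subunit of the replicative helicase, was at 2.26, 2.82, 7.13 and 3.53 CPM (1.06 ± 0.42). For Mcm5, WT ifetroban replicate 1 alone was high. Without the library labelled WT vehicle replicate 1 the 10 log2 fold changes lay between 0.35 and 0.98.

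The 10 lower genes had log2 fold changes between -0.96 and -0.37 without the library labelled WT vehicle replicate 1. Among them was Cd59a (chr2:104095801-104115354), which protects cells from the membrane attack complex of complement. It was at 54.8 and 31.1 CPM with vehicle against 17.3 and 15.9 CPM with ifetroban, a log2 fold change of -1.37 ± 0.489, or -0.91 without the library labelled WT vehicle replicate 1. Cd59a passed the test in 2 alternative fits, without a filter (-1.33) and with WT libraries alone in replicate blocks (-1.32). In both of these fits edgeR gave no gene a spread of its own. The main fit, DESeq2 and limma voom did not call Cd59a. The paralog Cd59b could share reads with Cd59a, so the level of either gene is uncertain. Evi2a, a membrane protein, was at 3.39, 2.55, 1.46 and 1.15 CPM (-1.18 ± 0.357). Fah, the last enzyme of tyrosine breakdown, was at 28.1, 20.2, 15.7 and 15.6 CPM (-0.63 ± 0.19). In both the ifetroban libraries lay close together and below the vehicle libraries.

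A pair of long noncoding RNAs were among the 10 lower genes. Snhg14, the host of an imprinted cluster of small nucleolar RNAs, was at 12.5, 8.96, 5.48 and 5.86 CPM (-0.91 ± 0.277), and Mir99ahg, a microRNA host, at 18.6, 13.5, 7.86 and 9.19 CPM (-0.91 ± 0.294). Without the library labelled WT vehicle replicate 1 they were at -0.66 and -0.66. Xaf1, an interferon-inducible factor, was at 7.65, 8.15, 5.41 and 4.44 CPM (-0.68 ± 0.224). Cyp4f13, a cytochrome P450 of a family that oxidises eicosanoids and other fatty acids, was at 6.01, 7.15, 4.30 and 3.96 CPM (-0.67 ± 0.234). Both were as low without the library labelled WT vehicle replicate 1, at -0.72 and -0.79. Sbk2, a protein kinase, was at 8.83, 6.72, 3.03 and 4.52 CPM (-1.04 ± 0.355), Ggnbp1, a gametogenetin-binding protein, at 26.1, 21.9, 15.99 and 17.7 CPM (-0.51 ± 0.172), and Tppp3, a tubulin-binding protein, at 18.1, 14.3, 9.97 and 10.9 CPM (-0.63 ± 0.228).

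**Figure D3:**
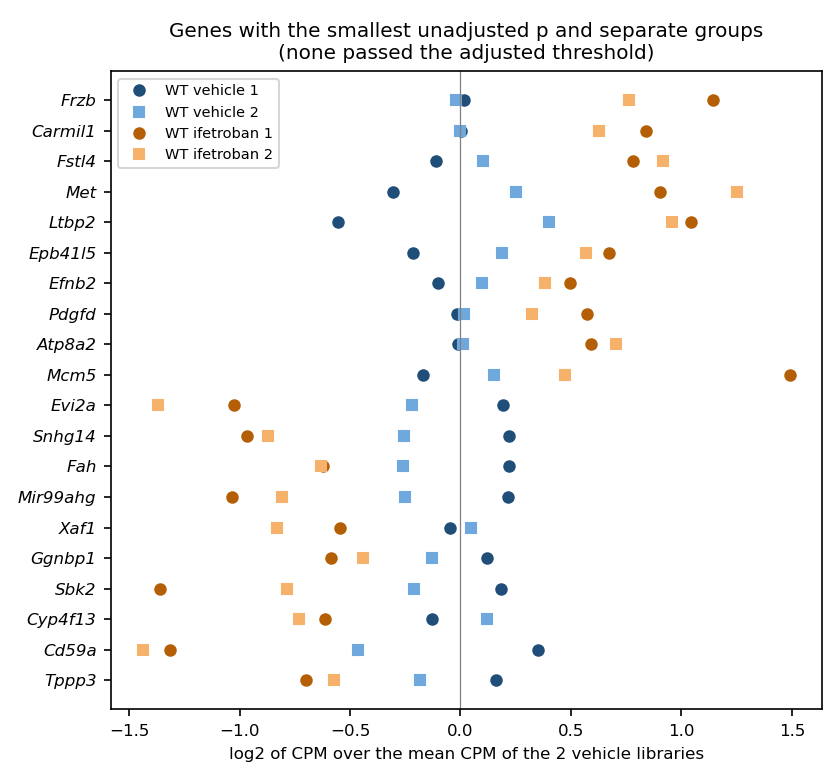
The 20 genes closest to the threshold: log2 of each library's CPM over the mean CPM of both vehicle libraries, 1 point per library. Blue vehicle points surround 0 and orange ifetroban points lie to one side, as the choice of genes requires; none passed after adjustment.

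No gene of cardiac load and hypertrophy passed the test. The 17 tested genes of this group had 9 positive and 8 negative values and a median log2 fold change of 0.11, the same without the library labelled WT vehicle replicate 1, and none had an unadjusted p under 0.05. Myh7, the myosin heavy chain of the fetal and stressed ventricle, was at 172 and 140 CPM with vehicle against 239 and 368 CPM with ifetroban. The groups did not overlap, but the ifetroban libraries differed from each other by more than the nearest libraries of both groups did. The log2 fold change was 0.96 ± 0.521, with a 95% interval from -0.21 to 2.12 (unadjusted p = 0.0962 in edgeR). Its value was 1.12 with the library labelled WT vehicle replicate 1 left out, and 0.62 without WT ifetroban replicate 2. In 2 of the alternative fits, without a filter and with WT libraries alone in replicate blocks, Myh7 was called, at 0.99 (adjusted p = 0.00995 in edgeR) and 0.93 (adjusted p = 0.0334). In both of these fits edgeR gave no gene a spread of its own. Nppa, atrial natriuretic peptide, was at 230, 209, 208 and 279 CPM (0.15 ± 0.348), and Nppb, brain natriuretic peptide, at 218, 224, 139 and 262 CPM (-0.14 ± 0.536). For both genes the groups overlapped, and for Nppb the lowest and the highest library were both ifetroban libraries. Acta1, skeletal alpha-actin, was at 1361 CPM in the library labelled WT vehicle replicate 1 and at 313, 480 and 524 CPM in the others. Its log2 fold change was -0.74 ± 0.667 and turned to 0.68 without that library.

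The genes of the sarcoglycan complex described here, which anchors the muscle membrane, showed no called difference. Sgca was at 122, 110, 108 and 109 CPM, and Sgcb at 145, 148, 149 and 146 CPM. Dmd, dystrophin, was at 128, 180, 221 and 201 CPM (0.45 ± 0.321). Sgcb varied least of these, and its log2 fold change was 0.01 ± 0.173. For Sgcd the log2 fold change was 0.68 ± 0.428, and 0.16 without the library labelled WT vehicle replicate 1. The 28 sarcomere genes had a median of -0.02 with 13 positive, and 0.05 with 23 positive once that library was left out. The 25 genes of calcium handling had a median of 0.04, and 0.02 without it. Atp2a2, which pumps calcium back into the sarcoplasmic reticulum, was at 14141, 16992, 17519 and 16133 CPM (0.11 ± 0.195).

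Nuclear genes of oxidative phosphorylation nearly all had negative values, and their size rested on the library labelled WT vehicle replicate 1. Of 39, 37 were negative, 25 with groups that did not overlap (16.5% of all genes lay lower in this way), and the median was -0.33. Without that library 36 were still negative, but the median was -0.04. After the trend with exonic length was removed it was -0.12. None had an unadjusted p under 0.05. Cox7a1, a subunit of cytochrome oxidase, was at 760, 442, 421 and 394 CPM (-0.56 ± 0.283), and Cox6c, another, at 904, 512, 477 and 495 CPM (-0.54 ± 0.298). In each the first vehicle library was high and the second was close to both ifetroban libraries. Over all genes the median log2 fold change was -0.22 in the shortest length quartile and 0.14 in the longest, and -0.01 and 0.02 without that library. The 13 mitochondrially encoded genes had a median of -0.17 (0.06 without it), and the 35 genes of fatty acid use a median of -0.09 (-0.04).

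Matrix and activated fibroblast genes were on the high side. Of 41 matrix genes 30 were positive, with a median of 0.20, and 0.08 without the library labelled WT vehicle replicate 1. Only Ltbp2 had an unadjusted p under 0.05. Of 12 myofibroblast markers, 10 were positive and 5 had groups that did not overlap, Ltbp2 among them. The share of all genes that lay higher in this way was 14.9%. The median of the 12 was 0.46, beside -0.02 over all genes; it was 0.50 without that library and 0.20 without WT ifetroban replicate 1. Thbs4, a matrix thrombospondin, was at 6.26, 5.14, 7.98 and 8.48 CPM (0.53 ± 0.285), and Postn, periostin, at 40.3, 37.9, 61.1 and 41.4 CPM (0.39 ± 0.368). Cthrc1, a marker of activated fibroblasts, was near the detection limit at 0.0513, 0.116, 0.345 and 0.198 CPM (1.59 ± 0.752). Both vehicle libraries were below both ifetroban libraries in all 3 genes. The fibrillar collagens overlapped between groups. Col1a1 was at 113, 150, 171 and 144 CPM (0.26 ± 0.217) and Col3a1 at 159, 263, 288 and 219 CPM (0.26 ± 0.272). The 14 markers of fibroblasts at large had a median of 0.04, and -0.00 without the library labelled WT vehicle replicate 1. In tissue RNA, fewer cells of a type and less RNA per cell cannot be told apart.

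Cell cycle genes were positive in 25 of 28 cases, with a median of 0.48. Leaving out the library labelled WT vehicle replicate 1 gave 0.22, and leaving out WT ifetroban replicate 1 gave 0.09. Mcm5, Mcm6 and Aurkb had unadjusted p under 0.05 in edgeR (0.315% of all genes in this direction), and 0 of the 28 passed after adjustment. Mcm6, another helicase subunit, was at 6.47, 7.46, 11.1 and 8.44 CPM (0.49 ± 0.204), and Aurkb, a mitotic kinase, at 0.103, 0.386, 1.07 and 0.555 CPM (1.65 ± 0.658). In each, WT ifetroban replicate 1 was highest and the library labelled WT vehicle replicate 1 lowest, and the groups did not overlap.

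Most red cell and neutrophil transcripts were lowest with ifetroban and highest in the library labelled WT vehicle replicate 1. All 8 erythroid genes had negative values, with a median of -2.06, and 6 had groups that did not overlap, where 16.5% of all genes lay lower in this way. Their summed level was 508 and 153 CPM with vehicle against 60.6 and 122 CPM with ifetroban. Hba-a1, an alpha-globin gene, was at 119, 33.8, 10.5 and 25.4 CPM, and its log2 fold change of -2.09 ± 0.844 was -0.91 without that library. Hbb-bs, a beta-globin gene, was at 255, 72.3, 24.1 and 54.5 CPM (-2.06 ± 0.845), and Slc4a1, the red cell anion exchanger, at 2.26, 0.386, 0.0384 and 0.317 CPM. In all 3 the second vehicle library lay near WT ifetroban replicate 2. Near-identical globin copies could divide reads, so single globin levels are uncertain. Without the library labelled WT vehicle replicate 1 the erythroid median was -0.90. The 4 genes Hba-a1, Hbb-bs, Slc4a1 and Hbb-bt had an unadjusted p under 0.05 in edgeR (0.944% of all genes in this direction), and none passed after adjustment.

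Of 7 neutrophil genes 6 were negative, 5 with an unadjusted p under 0.05 in edgeR (0.944% of all genes) and none after adjustment. The median was -1.92, and -0.86 without the library labelled WT vehicle replicate 1. S100a9, a calcium-binding protein of granulocytes, was at 4.11, 1.005, 0.844 and 0.475 CPM (-1.92 ± 0.722). Csf3r, the receptor of granulocyte colony-stimulating factor, was at 3.03, 2.16, 1.46 and 0.911 CPM (-1.12 ± 0.479). Retnlg, a neutrophil resistin-like protein, was at 1.03, 0.309, 0.115 and 0 CPM. Here WT ifetroban replicate 2, not replicate 1, was the lowest library, unlike the globin genes. Ly6g, Ngp, Camp and Ltf had at most 4 reads in any WT library.

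Platelets are a main site of the receptor, and their transcripts were scarce. Of the 8 tested markers 7 were negative, with a median of -1.70. Ppbp, a platelet chemokine, was at 3.08 CPM in the library labelled WT vehicle replicate 1 and at 0.270, 0.422 and 0.396 CPM in the others. Without that library 3 of the 8 genes had 0 reads in one group and at most 3 in the other, and the median of the remaining 5 was 0.04. Gp1ba, Gp5 and Gp6 had at most 6 reads in any WT library.

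Immediate early genes, which answer a stimulus within minutes, were highest in the same library. Of 21, 20 were negative, with a median of -1.16, or -0.16 with the library labelled WT vehicle replicate 1 left out. Nr4a1, a nuclear receptor of this class, was at 199 CPM in that library and at 19.7, 10.7 and 19.8 CPM in the others (-2.84 ± 1.13). Egr1, a zinc finger factor, was at 288, 80.9, 34.0 and 68.9 CPM (-1.84 ± 0.869), and Fosb at 16.6, 2.67, 0.882 and 1.51 CPM (-3.00 ± 1.5). For Egr1 and Fosb the second vehicle library was also above both ifetroban libraries, by less. Nr4a1 alone had an unadjusted p under 0.05 in edgeR. Whether the blood cell and immediate early values have a shared origin in that library was not tested.

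**Figure D4:**
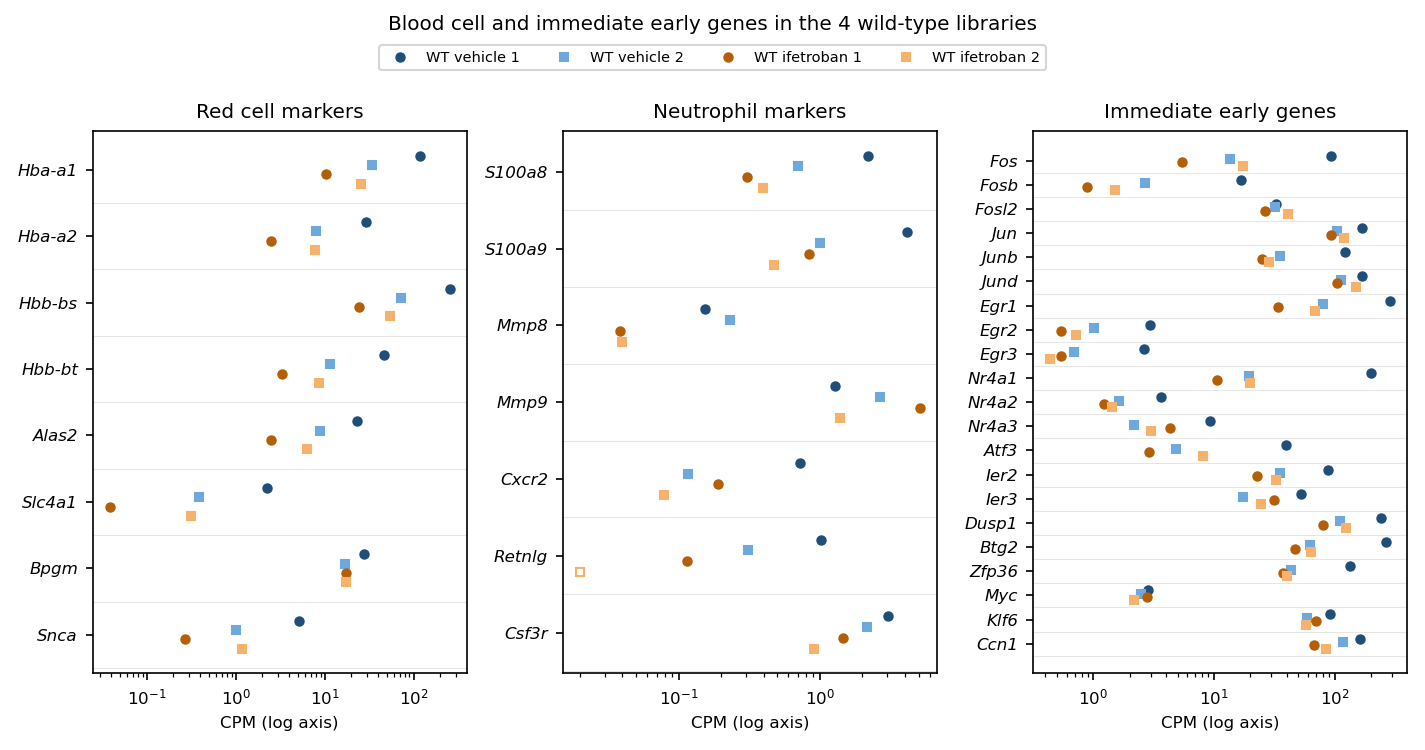
CPM (log axis) of tested red cell, neutrophil and immediate early genes in each WT library; the open point stands for 0 CPM and is drawn at 0.02. WT vehicle 1 is the highest point for most genes, including Hba-a1 at 119 CPM and Nr4a1 at 199 CPM.

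The cell types and responses described next had medians nearer to that of all genes than red cell and neutrophil markers had. With the value without the library labelled WT vehicle replicate 1 in brackets, the medians were -0.02 (-0.08) for 14 endothelial markers and 0.14 (-0.16) for 13 smooth muscle and pericyte markers. For 22 macrophage and monocyte markers the median was -0.04 (-0.04), and -0.44 without WT ifetroban replicate 1. In the vessel wall, Kcnj8, the pericyte potassium channel, was at 49.998, 50.115, 46.6 and 37.1 CPM (-0.26 ± 0.173) and Tagln, a smooth muscle actin-binding protein, at 35.7, 41.6, 34.6 and 27.2 CPM (-0.32 ± 0.378). Both were lowest in WT ifetroban replicate 2. Other members of that list, of which 8 were positive and 5 negative, were on the opposite side. Cspg4, a pericyte proteoglycan, was at 24.3, 37.9, 44.6 and 37.0 CPM (0.39 ± 0.305) and Notch3, a receptor of vascular smooth muscle, at 51.3, 103, 96.1 and 89.2 CPM (0.26 ± 0.347), each lowest in the library labelled WT vehicle replicate 1. With that library left out, Cspg4 was at 0.11 and Notch3 at -0.15, and the list had 1 positive and 12 negative members. C1qc, a macrophage complement subunit, was at 47.0, 30.7, 32.5 and 25.7 CPM and overlapped. The 25 interferon response genes had a median of -0.16 (-0.23 without the library labelled WT vehicle replicate 1). Of these, 17 were negative with all libraries and 24 without that library. In 7 of them both ifetroban libraries lay below both vehicle libraries, as in 16.5% of all genes. Ifi27l2a, of that group, was at 14.7, 7.88, 7.56 and 5.11 CPM (-0.83 ± 0.354).

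Vasoactive genes outside the prostanoid system did not pass either. The 24 tested genes of adrenergic, angiotensin and endothelin signalling had a median of 0.09, and the 18 of nitric oxide and vascular tone a median of 0.06. Leaving out the library labelled WT vehicle replicate 1 gave 0.06 for each. Edn1, endothelin, was at 6.31, 5.95, 4.41 and 4.75 CPM, lower in both ifetroban libraries (-0.42 ± 0.315). Edn3, another endothelin, was at 3.64, 1.47, 3.76 and 4.40 CPM (0.69 ± 0.444), where WT vehicle replicate 2 alone was low. Among ion channels, Kcne1, a potassium channel subunit, was at 3.59, 2.86, 0.767 and 1.90 CPM (-1.27 ± 0.547). Ddit4, which hypoxia and glucocorticoids induce, was at 21.3, 29.7, 33.2 and 48.1 CPM (0.67 ± 0.278). Ddit4 and Kcne1 had groups that did not overlap and unadjusted p of 0.0371 and 0.0436 in edgeR. The 19 clock genes had a median of 0.07 and the 16 heat shock genes a median of -0.13, values that were 0.35 and 0.15 without the library labelled WT vehicle replicate 1.

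Mesothelial genes, which line the surface of the heart, depended on the other vehicle library. All 11 were negative, with a median of -0.32, and WT vehicle replicate 2 was the highest library for most. Upk3b, a mesothelial membrane protein, was at 0.462, 4.83, 1.04 and 1.11 CPM. With the library labelled WT vehicle replicate 1 left out, the median became -1.17. Without WT vehicle replicate 2 it became 0.92, with genes at 0 reads set at the bound that 3 counts give. Over the 48 lists with at least 5 tested members, 30 medians were negative; 16 changed sign without the library labelled WT vehicle replicate 1 and 6 without WT vehicle replicate 2. Without WT ifetroban replicates 1 and 2 the numbers were 7 and 11.

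**Figure D5:**
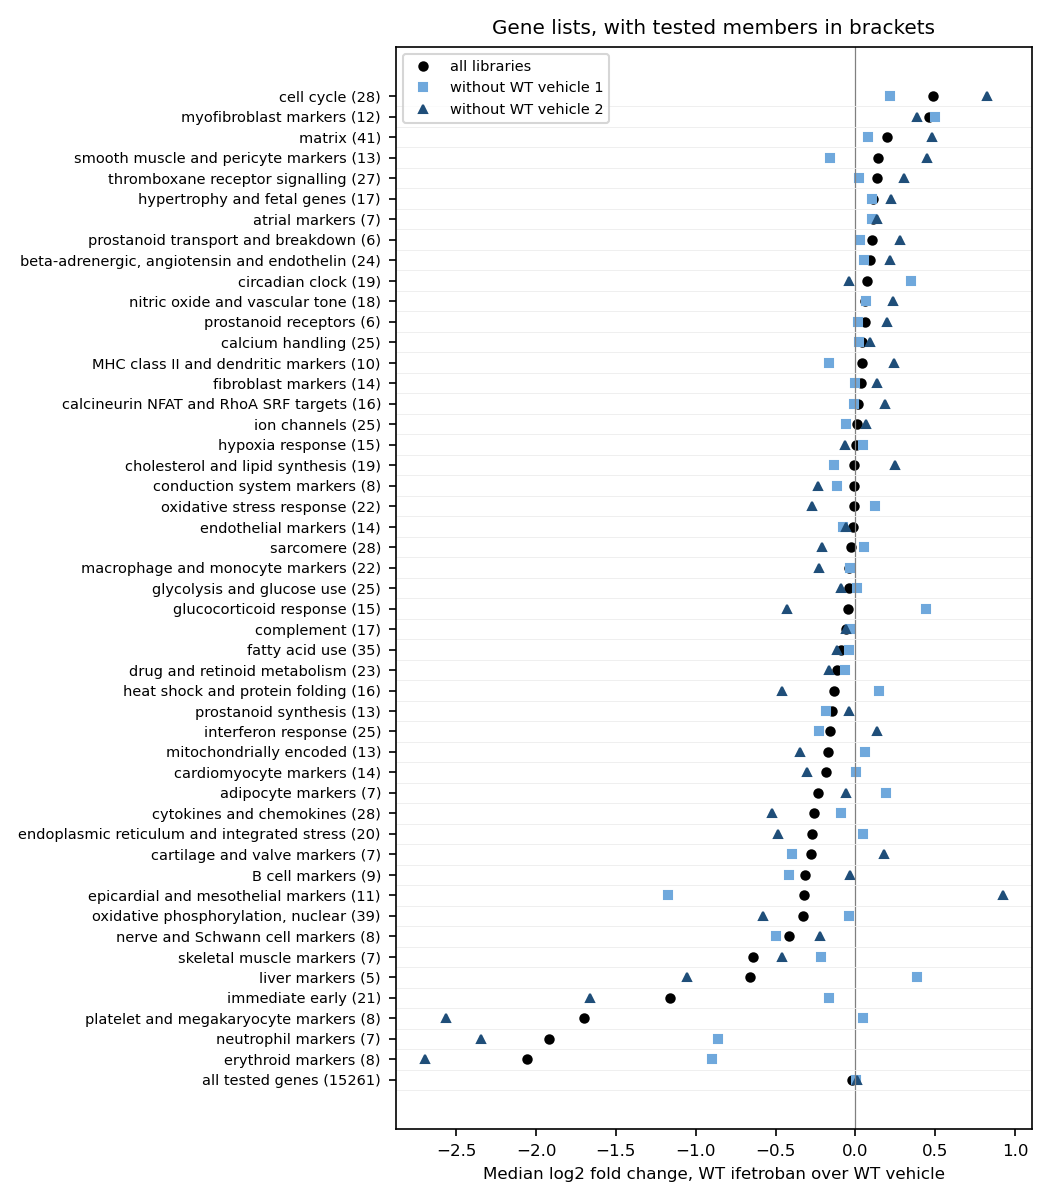
Median log2 fold change of each gene list (tested members in brackets) with all libraries and without each vehicle library in turn, genes at 0 reads in a group set at their bound. Erythroid, neutrophil, platelet and immediate early lists lie lowest and are nearer to 0 without WT vehicle 1; myofibroblast markers lie between 0.39 and 0.50 in these 3 fits, and at 0.20 without WT ifetroban replicate 1, which is not drawn.

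The drug's effect in WT was also set against its effect in the knockout, which had 2 vehicle and 3 ifetroban libraries of its own. No gene passed the test of the difference in edgeR after adjustment, the smallest adjusted p being 0.9998, and 211 genes (1.38%) had an unadjusted p under 0.05. DESeq2 called 0 as well. In KO vehicle replicates 1 and 2 and KO ifetroban replicate 1 short transcripts were high, unlike KO ifetroban replicates 2 and 3. The part of transcript length in the values below was not tested further. Frzb and Ltbp2 were chosen for a small p in WT, and the tested difference contains that WT difference. Their p-values below are therefore partly set by the choice. Frzb was at 17.1 and 13.9 CPM in KO vehicle and at 9.96, 8.62 and 11.7 CPM in KO ifetroban. There the ifetroban libraries were the lower ones, opposite to WT, and the difference between both log2 fold changes was 1.58 ± 0.315 (unadjusted p = 0.000579 in edgeR). Ltbp2 was at 54.1 and 45.2 CPM in KO vehicle and at 21.04, 17.7 and 35.3 CPM in KO ifetroban, a difference of 1.996 ± 0.486 (unadjusted p = 0.00227). Thbs4 was at 61.6 and 33.8 CPM in KO vehicle and 20.7, 18.9 and 15.9 CPM in KO ifetroban, a difference of 1.90 ± 0.375 (unadjusted p = 0.00055). In these 3 genes every WT library was below every knockout library. Among the genes closest to the threshold in WT, only Frzb and Ltbp2 lay on the opposite side in the knockout without overlap. Efnb2, Epb41l5 and Ggnbp1 lay on the same side there without overlap, and the others overlapped. Efnb2 was at 25.4 and 25.7 CPM in KO vehicle and 27.9, 34.4 and 32.7 CPM in KO ifetroban. For Efnb2 the difference was 0.13 ± 0.227. Tbxa2r was at 4.42 and 5.32 CPM in KO vehicle and at 3.69, 1.96 and 4.03 CPM in KO ifetroban, with groups that did not overlap there, and the difference was 0.37 ± 0.545.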

How the data were processed

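Polyadenylated RNA of left ventricle was extracted with a Qiagen kit and made into Illumina libraries, per the labels' protocols. The authors deposited whole-number read counts per gene and library, with no normalization. STAR 2.5.2b, HTSeq and the mouse build GRCm38 are named, per the submitters' processing notes; the annotation release is not given in the sources used here. The counts assigned to the reverse strand were used, which held 12.7 to 17.3 times those of the forward strand in the WT libraries. The 4 entries per library that name no gene held 27.7% to 31.9% of the WT reads and were left out. Of 49671 identifiers, 49412 took symbols, coordinates (counted from 1) and exonic lengths from the GENCODE annotation of GRCm38.

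Genes kept by filterByExpr were tested with edgeR 4.0.16 in R 4.3.3 (TMM, quasi-likelihood F test, two-sided, Benjamini-Hochberg over all 15261 genes, adjusted p under 0.05 called), with 1 coefficient per group and a spread shared by all 9 libraries. Fold changes are log2 with a prior count of 0.125, and standard errors were calculated back from the F statistic and are approximate. CPM was computed from the counts with TMM library sizes and compares libraries, not genes. Within-group count differences exceeded sampling noise, with a chi-square per degree of freedom of 66.1 in WT vehicle and 13.8 in WT ifetroban. The fit was tested on simulated data. Genes are named if among the 10 per direction with the smallest p, an average log2 CPM no lower than 1 and no overlap, if prostanoid or heart failure genes fixed in a list, or if among the 4 members with the smallest p of another list; unnamed gene models, pseudogenes and mitochondrial genes were left out of the first group. The comparison, the lists and this rule were chosen with earlier results of these data known. Lists are described by counts and medians and were not tested. Alternatives were other size factors, no filter, WT libraries alone, a replicate block, offsets for exonic length, unstranded counts, each library left out, DESeq2 1.42.0 and limma 3.58.1 voom; WT alone with length offsets or with a block was added after seeing the data. Replicate numbers were not treated as pairs: deviations of same-numbered WT libraries correlated at 0.0236.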

Additional observations from a re-analysis of the deposited data

Results flagged for a closer look

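The 12 myofibroblast markers, taken as the mean of log2 CPM over the list, lay on opposite sides in both genotypes. In this mean, every WT ifetroban library was above every WT vehicle library, by 0.27 on average, and every KO ifetroban library was below every KO vehicle library, by an average that gives -0.99. The difference between both was 1.26, and it was not tested as a list. The list was picked out for this pattern after its values were seen. Means of many other lists also did not overlap in WT. Higher with ifetroban were thromboxane receptor signalling (0.13), hypertrophy, calcium handling, nitric oxide, atrial, and prostanoid transport and breakdown genes. Lower were erythroid (-1.89), neutrophil, immediate early, nuclear oxidative phosphorylation (-0.30), fatty acid, prostanoid synthesis, skeletal muscle and nerve genes. Over all single genes in WT, 14.9% lay higher and 16.5% lower in this way. The median log2 fold change of the myofibroblast markers in WT was 0.46, and 0.20 without WT ifetroban replicate 1. In WT 10 of the 12 genes were positive and 2 negative, and none was called. Cilp, one of the markers, chosen after its values were seen, was at 20.6, 18.9, 24.4 and 34.8 CPM in the WT libraries, highest with ifetroban. Acta2, smooth muscle actin, also chosen so, went the other way in WT at 83.0, 119, 88.5 and 94.9 CPM.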

How the results depend on the processing

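The count of 0 called genes was also found with DESeq2 size factors in edgeR, WT libraries alone, length offsets (with all libraries or WT alone), unstranded counts, DESeq2, limma voom and each of the 9 libraries left out. With the replicate block it was 0 as well. It was 34 without a filter (6 higher, 28 lower) and, in an alternative added after seeing the data, 27 with WT libraries alone and a replicate block (5 higher, 22 lower); 22 genes were in both. In these 2 fits edgeR gave no gene a spread of its own. The calls included Nr4a1 and the globin genes Hba-a1 and Hbb-bs, which were highest in the library labelled WT vehicle replicate 1. They also included Myh7, at 0.99 and 0.93, and Cd59a, at -1.33 and -1.32; with that library left out of the filtered fit on all libraries they were at 1.12 and -0.91, and neither was called. The test of the difference between genotypes gave 0 calls except without a filter, where it gave 73. At an unadjusted p under 0.05, 652 genes were higher and 822 lower without WT vehicle replicate 2, against 30 and 74 without the library labelled WT vehicle replicate 1. Negative list medians numbered 24 to 31 of 48 when 1 library was left out; 11 medians changed sign with length offsets, and at most 1 when a knockout library was left out. With 2 libraries per group, the unadjusted 95% interval had a median half-width of 0.609 (log2). A smaller change could not be told from 0 for a typical gene even before adjustment. Larger changes also fell short after adjustment, such as Frzb at 0.96 and Cd59a at -1.37.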

Other observations

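Some transcripts typical of the kidney proximal tubule, from a list chosen after its values were seen, appeared in WT ifetroban replicate 1. Kap had 2, 0, 146 and 3 reads, Slc34a1 had 0, 0, 48 and 0, and Slc27a2 had 0, 0, 38 and 0 in the WT libraries. Miox, with 1, 0, 7 and 0 reads, and Slc22a6, with 0, 0, 6 and 0, were also highest in that library. In the knockout, Kap had 62 and 42 reads in KO vehicle and 14, 0 and 0 in KO ifetroban. For Kap the KO vehicle libraries, not the KO ifetroban libraries, held more reads. Some other members of the list went otherwise. Cubn had 53, 123, 119 and 154 reads in the WT libraries, and Slc22a8 had 2, 1, 2 and 1. In KO vehicle Cubn had 25 and 89 reads, against 75, 90 and 135 in KO ifetroban. Malat1, a nuclear noncoding RNA likewise chosen after its values were seen, was at 1170 and 995 CPM with vehicle against 685 and 717 CPM with ifetroban in WT, the same side as Snhg14 and Mir99ahg.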
